A study of Mus musculus with 18 samples.

Results

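The livers compared were those of 6 male C57BL/6 mice (C57BL/6J in the methods) kept on a standard diet (normal control, NC) and of 6 mice of the same strain fed a high-fat diet (HFD), out of 18 livers in the series; the other 6 came from HFD mice given mulberry twig alkaloids (SZ-A) and entered only the filter on low values and 1 alternative fit. The mice were 6 weeks old on arrival. The HFD mice ate the high-fat diet for 14 weeks and then entered a second phase on the same diet, given as 8 weeks in the deposited description and 6 in the methods, in which they received saline. The methods name saline for HFD control groups alone, given by stomach tube or by injection into the abdomen. The study's account of the sequencing does not give the route for the HFD mice sequenced. Its figure legends label NC mice with either route, so whether NC mice received saline was not settled by these sources. The diets differed in more than fat. All mice were fasted overnight before they were killed, and the time of killing was not given in the sources used here. Mice were assigned to groups by their titles. For NC6 the diet label reads high-fat while the title reads chow, and the title was followed. The comparison asks how livers of mice on the 2 diets differed without the drug. The methods describe 10 mice per group, of which 6 were sequenced, and nothing ties the libraries to cages or days, so p-values measure the spread between these mice only.

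The liver takes up fatty acids from blood, builds them from sugar, stores them as triglyceride in lipid droplets, exports them in lipoproteins and burns them in mitochondria and peroxisomes. It also disposes of amino acid nitrogen through the urea cycle, makes bile acids and most plasma proteins, and clears foreign compounds with cytochrome P450 enzymes. When it holds excess fat for long, resident macrophages are joined by cells from blood, and stellate cells, the fat-storing cells beside the sinusoids, lay down collagen.

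Values are FPKM, the fragments on a gene divided by gene length and library size. Genes with a mean of at least 1 FPKM over the 18 mice were tested, 10216 of 54532, with limma on log2(FPKM + 0.1). A gene was called where the Benjamini-Hochberg adjusted p was under 0.05 and the fold change over 1.2, and "rose" and "fell" are used of called genes. Levels are given as the median of 6 mice with the lowest and highest mouse in parentheses, and a log2 fold change is HFD minus NC with its standard error. The pseudocount of 0.1 makes the fold change of genes near 0 FPKM too small.

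Fragments on genes numbered 17366205 to 20493907 in NC and 17163191 to 20295316 in HFD mice. Albumin (Alb), the main product of hepatocytes, stood at 27700 FPKM (25100 to 36600) in NC and 20600 FPKM (16100 to 29800) in HFD mice (log2 fold change -0.47 ± 0.16, adjusted p = 0.0558, not called). Alb was called lower without HFD5 (adjusted p = 0.0168). The first principal component held 38.3% of the variance and placed all 6 NC mice below 0 and all 6 HFD mice above it. NC6 lay at -12.95, the NC mouse nearest to 0, with the other NC mice at -18.44 or below and the HFD mice at 19.02 or above. NC5 stood apart at -45.81 on the first and -38.26 on the second component, which held 14.29%. It had 1250 FPKM of metallothionein 1 (Mt1), against 57.1 to 282 in the other NC mice, and 104 FPKM of Cyp17a1, a steroid hydroxylase, against 7.97 to 19.4.

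**Figure D1:**
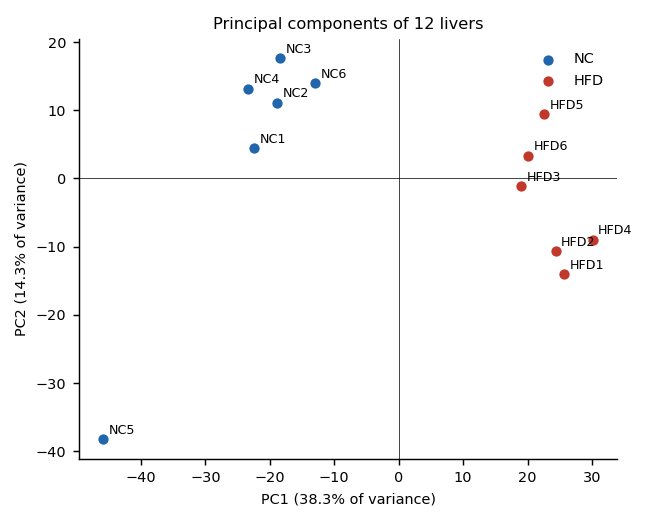
Scores of the 12 livers on the first 2 principal components of log2(FPKM + 0.1) over the genes tested, with the share of variance on each axis. Blue points are NC and red points HFD mice; NC5 lies far from the other NC mice on both axes.

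Of the genes tested, 2062 (20.2%) were called, 1092 (10.7%) higher and 970 (9.49%) lower in HFD liver. In 1068 genes (10.5%) the groups of 6 mice did not overlap. A fold over 2 was reached by 240 of the higher and 131 of the lower genes. The split between higher and lower depended on the scaling. The library size behind the deposited FPKM was 0.9325 to 1.0248 times the fragments on genes in NC and 0.9983 to 1.1414 times in HFD mice, and FPKM summed to 402436 to 489187 in NC and 353946 to 424825 in HFD mice. When the FPKM of every mouse were brought to the same sum, 2100 genes were higher and 334 lower, and the median log2 fold change of all genes was 0.154 in place of -0.033. Voom on plain fragment totals gave 2010 and 409, and median-ratio scaling 1195 and 801. The counts of each list are therefore given under both scalings, with the median log2 fold change of its tested members as deposited. Against them stand 10.7% higher and 9.49% lower of all genes as deposited, with a median of -0.033, and 20.6% and 3.27% with a common FPKM sum. Where a list count moved by over 1.5 times when 1 mouse was left out, the mice and the count without each are given after it. Genes near 0 FPKM in NC could pass the filter on low values only through the groups in which they were high, which favours higher calls in lists of such genes.

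**Figure D2:**
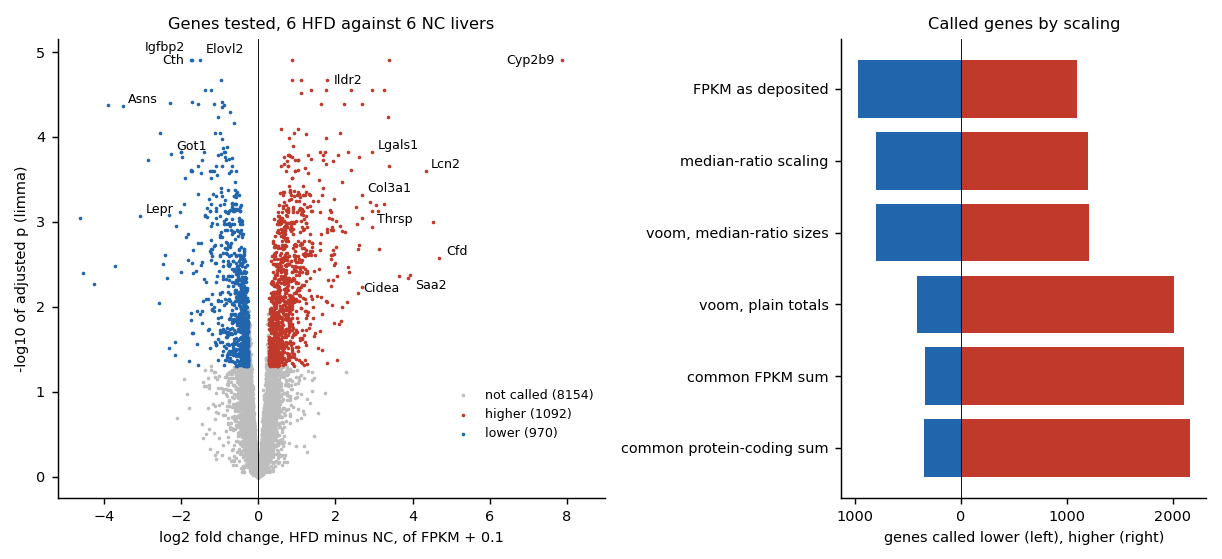
Left, log2 fold change (HFD minus NC, of FPKM + 0.1) against -log10 of the adjusted p for the 10216 genes tested, with called genes in red (higher, 1092) and blue (lower, 970). Right, the number of genes called lower (blue, to the left) and higher (red, to the right) under 6 scalings: from 970 and 1092 with FPKM as deposited to 334 and 2100 with a common FPKM sum.

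The gene with the largest fold change was Cyp2b9, a P450 enzyme that male mouse liver normally lacks. It stood at 0.183 FPKM (0.0611 to 0.879) in NC and 90.4 FPKM (24.6 to 180) in HFD mice (log2 fold change 7.87 ± 0.53, adjusted p = 1.25e-05). The groups were far apart, and HFD mice differed among themselves, with 180 FPKM in HFD4 and 24.6 in HFD3. Ranked by adjusted p, the first 10 genes that rose also held Gbe1, the glycogen branching enzyme, at 12.3 FPKM (11.3 to 13.5) in NC and 22.2 FPKM (20.9 to 26.7) in HFD mice (log2 fold change 0.89 ± 0.08, adjusted p = 2.15e-05). Ildr2, a membrane protein of the endoplasmic reticulum, stood at 3.35 FPKM (2.9 to 4.89) in NC and 12.5 FPKM (8.87 to 15.4) in HFD mice (log2 fold change 1.78 ± 0.15, adjusted p = 2.15e-05). None of these 3 genes overlapped between groups, and Samd9l, Sult1c2 and Ifi27l2b, which rose too, did not either.

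Of the genes that fell, Cth, the enzyme that makes cysteine from cystathionine, stood at 439 FPKM (330 to 521) in NC and 127 FPKM (108 to 166) in HFD mice (log2 fold change -1.74 ± 0.13, adjusted p = 1.25e-05). Igfbp2, a secreted binding protein for insulin-like growth factors, stood at 770 FPKM (633 to 1010) in NC and 247 FPKM (196 to 295) in HFD mice (log2 fold change -1.71 ± 0.13, adjusted p = 1.25e-05). Elovl2, which lengthens very long polyunsaturated fatty acids, stood at 261 FPKM (182 to 274) in NC and 85.9 FPKM (73.7 to 101) in HFD mice (log2 fold change -1.51 ± 0.12, adjusted p = 1.25e-05). In each of the 3 the highest HFD mouse lay below the lowest NC mouse by a wide margin. Tmed5, Hsd17b7, Slco2a1, Pnpla7, Elovl5, Etnppl and Slc25a15 completed the 10, and none overlapped.

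**Figure D3:**
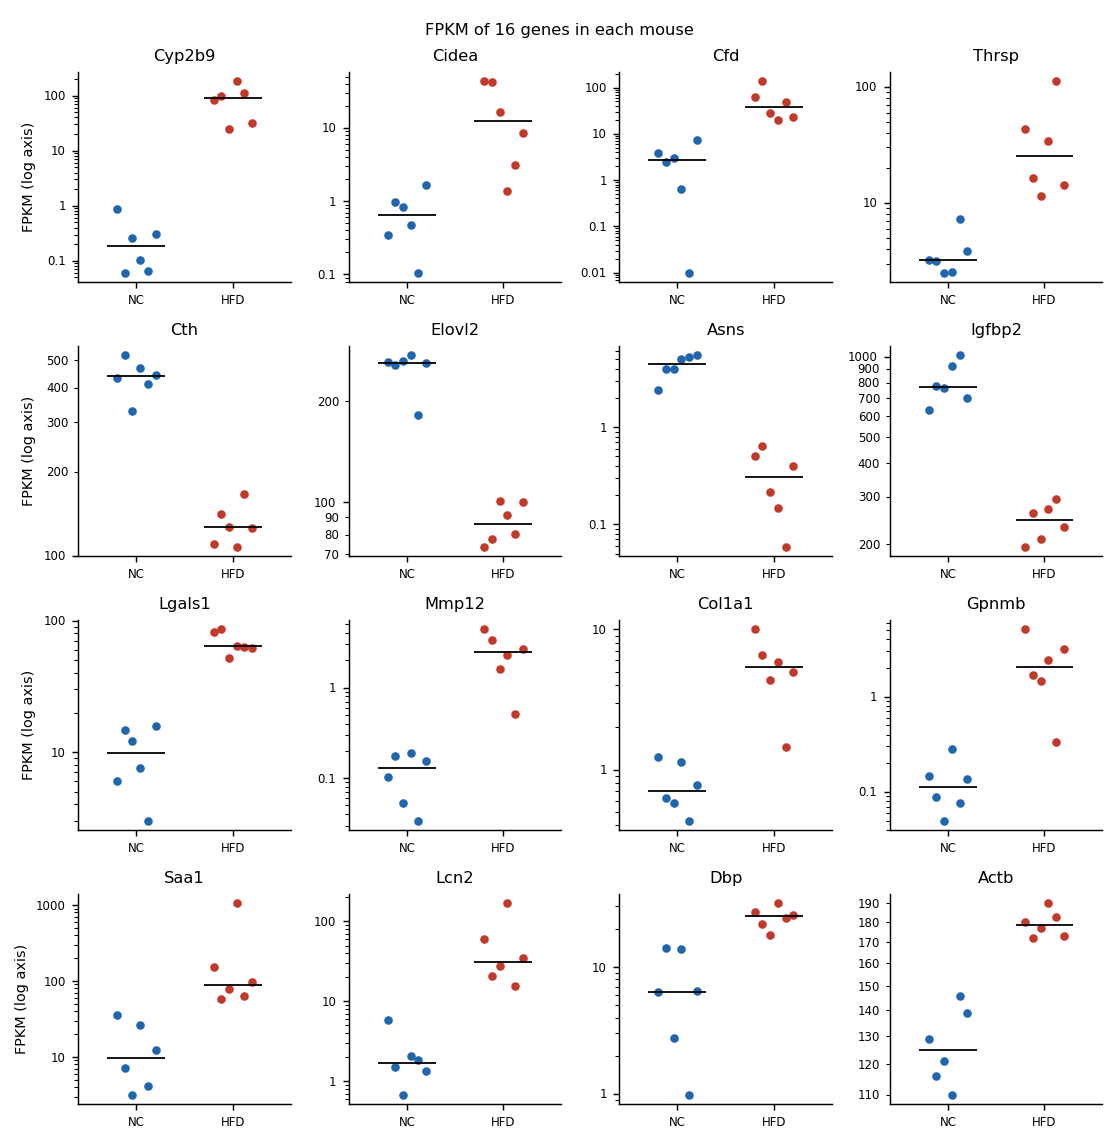
FPKM (log axes) of 16 genes in each mouse. Blue points are the NC and red points the HFD mice, numbers 1 to 6 from left to right, and the bar is the median; Cfd in NC5, listed at 0, is drawn at 0.01. Igfbp2 and Cth were lower and Lgals1 and Actb higher in every HFD mouse than in any NC mouse, while Cidea overlapped.

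Of 21 genes of fatty acid uptake and binding, 4 rose and 3 fell (median log2 fold change 0.02, between -0.06 and 0.22 over the alternatives, and 5 and 1 with a common FPKM sum). Cd36, the membrane carrier of fatty acids, stood at 22.6 FPKM (10.9 to 41.3) in NC and 97.6 FPKM (77.6 to 117) in HFD mice (log2 fold change 2.06 ± 0.24, adjusted p = 0.000163). Lpl, lipoprotein lipase, stood at 1.34 FPKM (0.902 to 2.21) in NC and 3.1 FPKM (2.48 to 5.63) in HFD mice (log2 fold change 1.31 ± 0.23, adjusted p = 0.0017). Both rose without overlap between groups. Fabp1, the abundant fatty acid binding protein of hepatocytes, was at 4350 FPKM (2520 to 5580) in NC and 4090 FPKM (3490 to 4880) in HFD mice (log2 fold change 0.07 ± 0.20, adjusted p = 0.843, not called), and Fabp4 rose while Cav1, Acsl5 and Dbi fell.

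Among 18 genes of lipid droplets and lipolysis, 4 rose and 3 fell (median log2 fold change 0.07, between -0.11 and 0.26 over the alternatives, and 6 and 2 with a common FPKM sum). Cidea, a droplet protein typical of brown fat, stood at 0.654 FPKM (0.106 to 1.68) in NC and 12.5 FPKM (1.38 to 43.1) in HFD mice (log2 fold change 3.94 ± 0.80, adjusted p = 0.00426). The HFD mice spanned a wide range, with 43.1 and 42.3 FPKM in HFD1 and HFD2 and 1.38 in HFD4, which lay within the NC range. The call was lost with voom (adjusted p = 0.0691 with median-ratio library sizes). Plin4 rose as well. Plin5, which ties droplets to mitochondria, stood at 86.9 FPKM (56.8 to 184) in NC and 37.7 FPKM (29 to 44.9) in HFD mice (log2 fold change -1.26 ± 0.23, adjusted p = 0.0022) without overlap. Pnpla2, the lipase that opens triglyceride breakdown, stood at 52.4 FPKM (41.9 to 108) in NC and 32.2 FPKM (26.7 to 38.4) in HFD mice (log2 fold change -0.85 ± 0.19, adjusted p = 0.00801) without overlap. Plin2, the coat protein often used to mark fatty hepatocytes, was at 348 FPKM (253 to 459) in NC and 252 FPKM (192 to 312) in HFD mice (log2 fold change -0.45 ± 0.17, adjusted p = 0.0727, not called). Plin2 was called lower without NC1 (adjusted p = 0.0397).

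Of 14 genes of triglyceride synthesis, 2 rose and 3 fell (median log2 fold change -0.28, and 3 and 0 with a common FPKM sum). The 2 that rose were Mogat1, which acylates monoacylglycerol, and Dgat2, which makes the last step. Mogat1 stood at 1.14 FPKM (0.693 to 1.33) in NC and 5.08 FPKM (3.87 to 9.08) in HFD mice (log2 fold change 2.21 ± 0.21, adjusted p = 4.1e-05). Dgat2 stood at 126 FPKM (111 to 145) in NC and 195 FPKM (178 to 227) in HFD mice (log2 fold change 0.64 ± 0.09, adjusted p = 0.000441). Its partner Dgat1 stood at 8.79 FPKM (8.35 to 15.1) in NC and 6.64 FPKM (5.48 to 8.04) in HFD mice (log2 fold change -0.55 ± 0.14, adjusted p = 0.0164). None of the 3 overlapped between groups, but Dgat1 was not called with a common FPKM sum (adjusted p = 0.0761). Lower calls in triglyceride synthesis numbered 5 without NC5.

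Among 24 genes of fatty acid synthesis and elongation, 8 rose and 5 fell (median log2 fold change -0.19, and 9 and 3 with a common FPKM sum). Srebf1, the transcription factor of lipogenesis, stood at 5.82 FPKM (4.14 to 12.9) in NC and 20.2 FPKM (9.83 to 34) in HFD mice (log2 fold change 1.53 ± 0.34, adjusted p = 0.00752). Thrsp, a nuclear protein that follows lipogenic signals, stood at 3.21 FPKM (2.51 to 7.31) in NC and 25.2 FPKM (11.4 to 111) in HFD mice (log2 fold change 2.94 ± 0.48, adjusted p = 0.00115), with 111 FPKM in HFD5. Pklr, the liver pyruvate kinase, stood at 17.4 FPKM (14.8 to 22.6) in NC and 31.5 FPKM (21.7 to 54.3) in HFD mice (log2 fold change 0.86 ± 0.19, adjusted p = 0.00751). Of the enzymes that build palmitate, Fasn was at 9.6 FPKM (6.97 to 13.3) in NC and 7.82 FPKM (6.09 to 12.6) in HFD mice (log2 fold change -0.22 ± 0.19, adjusted p = 0.458, not called) and Acly at 20 FPKM (13.1 to 22.7) in NC and 15.1 FPKM (13.4 to 22.9) in HFD mice (log2 fold change -0.27 ± 0.15, adjusted p = 0.216, not called), which fell without NC5 (adjusted p = 0.0455). Higher calls in fatty acid synthesis numbered 5 without NC2, NC3, NC4, HFD1, HFD2 or HFD3. Lower calls in fatty acid synthesis numbered 8 without NC5.

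The genes that fell were the elongases Elovl2, Elovl3 and Elovl5, the desaturase Fads1 and the citrate carrier Slc25a1. Elovl5, which acts on polyunsaturated fatty acids, stood at 328 FPKM (259 to 356) in NC and 95.8 FPKM (62.2 to 138) in HFD mice (log2 fold change -1.72 ± 0.16, adjusted p = 3.86e-05) without overlap. Elovl3 stood at 141 FPKM (78.9 to 318) in NC and 38.1 FPKM (25.5 to 75.6) in HFD mice (log2 fold change -1.83 ± 0.35, adjusted p = 0.00278) without overlap. Scd1, the desaturase that makes oleate, varied from mouse to mouse in both groups, at 317 FPKM (50.2 to 1270) in NC and 386 FPKM (79 to 848) in HFD mice (log2 fold change 0.19 ± 0.74, adjusted p = 0.883, not called).

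None of 24 genes of cholesterol synthesis rose, and 5 fell (4 with a common FPKM sum, 7 without NC5, 8 without HFD5, median log2 fold change -0.16, which turned to 0.03 with a common FPKM sum): Tm7sf2, Sqle, Hsd17b7, Dhcr7 and Pmvk. Hsd17b7, a sterol 3-ketoreductase, stood at 17 FPKM (14.3 to 19.9) in NC and 7.14 FPKM (5.41 to 8.27) in HFD mice (log2 fold change -1.23 ± 0.11, adjusted p = 2.78e-05) without overlap. Sqle, squalene epoxidase, stood at 2.45 FPKM (0.892 to 2.96) in NC and 0.671 FPKM (0.502 to 1.28) in HFD mice (log2 fold change -1.35 ± 0.31, adjusted p = 0.00799), and NC1 and NC5 lay among the HFD mice. Tm7sf2, a sterol reductase, stood at 19 FPKM (9.28 to 22.1) in NC and 6.46 FPKM (4.35 to 9.71) in HFD mice (log2 fold change -1.37 ± 0.21, adjusted p = 0.000855). The mean level of the list over mice ranged from -0.62 to 0.38 in NC mice and from -0.56 to 0.09 in HFD mice, and NC5 and NC1 were the lowest NC mice.

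Since these genes share regulation by sterols, their promoters were read from RefSeq (GRCm38.p6), which held 17 of the 24. A CCAAT box (CCAAT, on either strand) lay in the 250 bases before a start site of 16 of 17, against 40.4% of the 7600 tested genes with a window. Of the clock genes with a window, 11 of 16 (68.8%) had a CCAAT box. The sterol regulatory element core (TCACNCCA, on either strand) lay in 3 of 17, Srebf2, Hmgcs1 and Msmo1, against 4.05%. None of those 3 genes was called. A pair that fell and a gene that was not called, Hmgcs1 at 14.5 FPKM (9.54 to 19.4) in NC and 12.9 FPKM (9.21 to 15.1) in HFD mice (log2 fold change -0.16 ± 0.17, adjusted p = 0.55, not called), are printed with these motifs in capitals, where ATTGG is CCAAT on the opposite strand.
Hsd17b7, chr1:169969206-169969455, minus strand: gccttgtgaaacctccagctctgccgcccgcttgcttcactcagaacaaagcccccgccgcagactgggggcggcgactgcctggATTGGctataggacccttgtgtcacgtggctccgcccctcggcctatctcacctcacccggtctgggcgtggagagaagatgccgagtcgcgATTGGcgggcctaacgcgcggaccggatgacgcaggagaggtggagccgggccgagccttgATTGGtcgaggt
Tm7sf2, chr19:6067851-6068100, minus strand: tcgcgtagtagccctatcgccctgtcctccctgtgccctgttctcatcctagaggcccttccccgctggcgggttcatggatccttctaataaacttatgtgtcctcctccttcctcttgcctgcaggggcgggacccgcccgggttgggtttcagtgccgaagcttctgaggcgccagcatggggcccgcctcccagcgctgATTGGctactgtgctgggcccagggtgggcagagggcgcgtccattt
Hmgcs1, chr13:119690101-119690350, plus strand: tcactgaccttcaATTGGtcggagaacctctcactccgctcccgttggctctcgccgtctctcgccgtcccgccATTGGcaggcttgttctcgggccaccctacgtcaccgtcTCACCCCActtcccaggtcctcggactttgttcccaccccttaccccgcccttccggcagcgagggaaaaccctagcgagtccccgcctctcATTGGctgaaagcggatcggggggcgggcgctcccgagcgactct
The Hsd17b7 window held 3 CCAAT boxes and no sterol element core, that of Tm7sf2 held 1 and none, and that of Hmgcs1 held 3 and 1. The letters are a description of these windows and were not tested against the changes.

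Of 37 genes of fatty acid oxidation and ketogenesis, 3 rose and 12 fell (median log2 fold change -0.17, between -0.24 and 0.02 over the alternatives, and 5 and 6 with a common FPKM sum). Known targets of PPARα, the fatty acid sensor of hepatocytes, lay among the genes that fell and, with Vnn1, among those that rose. Cyp4a14, a fatty acid omega-hydroxylase, stood at 2970 FPKM (1440 to 4390) in NC and 1190 FPKM (680 to 1660) in HFD mice (log2 fold change -1.35 ± 0.28, adjusted p = 0.00512). Cyp4a10 stood at 1760 FPKM (1130 to 2220) in NC and 862 FPKM (715 to 1070) in HFD mice (log2 fold change -0.998 ± 0.16, adjusted p = 0.000855), without overlap. Ehhadh, a peroxisomal enzyme, stood at 808 FPKM (484 to 1160) in NC and 355 FPKM (218 to 577) in HFD mice (log2 fold change -1.15 ± 0.27, adjusted p = 0.00997). In Cyp4a14, NC6 lay below HFD4, and in Ehhadh NC6 lay below HFD2 and HFD4 and NC2 below HFD2. Cpt1a, the gate of mitochondrial oxidation, fell too (log2 fold change -0.66 ± 0.10, adjusted p = 0.000699). The genes that rose were Hadh, Ucp2 and Vnn1, the last at 64.1 FPKM (46.5 to 103) in NC and 107 FPKM (98.9 to 159) in HFD mice (log2 fold change 0.83 ± 0.17, adjusted p = 0.00501).

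Of 16 genes of PPARs, their coactivators and the adiponectin receptors, Pparg alone was called with FPKM as deposited, and 2 rose with a common FPKM sum (median log2 fold change 0.02 as deposited). Lower calls in PPARs, coactivators and adiponectin receptors numbered 1 without NC3. Pparg, which promotes fat storage, stood at 3.09 FPKM (2.45 to 4.84) in NC and 6.36 FPKM (4.26 to 6.87) in HFD mice (log2 fold change 0.80 ± 0.17, adjusted p = 0.00468). Ppara was at 52.5 FPKM (13.1 to 63) in NC and 52.6 FPKM (39.6 to 58.6) in HFD mice (log2 fold change 0.26 ± 0.31, adjusted p = 0.596, not called), with NC5 far below all other mice. Ppargc1a, a coactivator of oxidation, was at 1.84 FPKM (1.04 to 4.68) in NC and 1.14 FPKM (0.944 to 1.74) in HFD mice (log2 fold change -0.72 ± 0.30, adjusted p = 0.0997, not called), and the receptors Adipor1 and Adipor2 at log2 fold changes of -0.20 and 0.24, not called.

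Among 22 genes of lipoproteins and their export, 3 rose and 6 fell (median log2 fold change -0.20, and 6 and 6 with a common FPKM sum). Apoa1, the main protein of high-density lipoprotein, stood at 8180 FPKM (7580 to 13400) in NC and 4500 FPKM (3500 to 6010) in HFD mice (log2 fold change -0.91 ± 0.17, adjusted p = 0.00235) without overlap, a call lost with no filter on low values (adjusted p = 0.102). Apom, carried on the same particles, stood at 192 FPKM (161 to 236) in NC and 98.6 FPKM (91.6 to 121) in HFD mice (log2 fold change -0.89 ± 0.10, adjusted p = 0.000152) without overlap. Mttp, which loads lipid onto apolipoprotein B, stood at 74.1 FPKM (66.4 to 77.2) in NC and 51.2 FPKM (40 to 54.2) in HFD mice (log2 fold change -0.57 ± 0.09, adjusted p = 0.000716). Apob and Apoe were at log2 fold changes of -0.22 and 0.15 and were not called. NC5 had 328 FPKM of Apob, the lowest of all 12 mice, and without NC5 Apob fell (adjusted p = 0.00836). Higher calls in apolipoproteins and lipoprotein export numbered 1 without NC4.

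Of 21 genes of bile acid synthesis and transport, 4 rose and 4 fell (median log2 fold change -0.01, between -0.05 and 0.18 over the alternatives, and 6 and 3 with a common FPKM sum). Cyp8b1, which makes the 12-hydroxylated bile acids, stood at 524 FPKM (447 to 627) in NC and 178 FPKM (95.5 to 281) in HFD mice (log2 fold change -1.71 ± 0.22, adjusted p = 0.00025) without overlap. Slco1a4, a basolateral transporter, stood at 24.3 FPKM (14 to 30.9) in NC and 7.17 FPKM (4.01 to 8.3) in HFD mice (log2 fold change -1.76 ± 0.22, adjusted p = 0.000253) without overlap. Cyp7a1, the rate-limiting enzyme of bile acid synthesis, stood at 12.8 FPKM (7.74 to 22.5) in NC and 22.5 FPKM (15.1 to 30.9) in HFD mice (log2 fold change 0.80 ± 0.26, adjusted p = 0.0428). That call was close to the threshold and was lost without NC1, NC2, NC3, NC6, HFD1, HFD2, HFD3, HFD4 or HFD5 (adjusted p of 0.0168 to 0.0915 over the 12 fits that each left out 1 mouse, highest over all alternatives 0.202). Higher calls in bile acid synthesis and transport numbered 1 without NC3 or HFD5 and 2 without NC2, NC4, HFD1, HFD2, HFD3 or HFD4.

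Of 35 genes of insulin signalling and glucose metabolism, 9 rose and 6 fell (median log2 fold change 0.03, between -0.05 and 0.22 over the alternatives, and 11 and 4 with a common FPKM sum). Pck1, the key enzyme of gluconeogenesis, stood at 1090 FPKM (919 to 1600) in NC and 500 FPKM (406 to 659) in HFD mice (log2 fold change -1.15 ± 0.15, adjusted p = 0.000253), without overlap. G6pc, the last step of glucose release, stood at 179 FPKM (60.5 to 285) in NC and 71.6 FPKM (34.6 to 120) in HFD mice (log2 fold change -1.26 ± 0.38, adjusted p = 0.0305), a call lost without NC1, NC3, NC5, HFD1, HFD4 or HFD6 (adjusted p of 0.00642 to 0.0662 over the 12 fits that each left out 1 mouse, highest over all alternatives 0.0703).

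Of 17 genes of the growth hormone and IGF axis, 5 rose and 2 fell (median log2 fold change 0.27, and 6 and 2 with a common FPKM sum). Besides Igfbp2, Igfbp1 fell, at 157 FPKM (21.2 to 622) in NC and 31.5 FPKM (13.2 to 48.3) in HFD mice (log2 fold change -2.16 ± 0.67, adjusted p = 0.0367), a call lost without NC1, NC3, NC4, NC5, HFD1, HFD3, HFD4 or HFD6 (adjusted p of 0.00511 to 0.0784 over the 12 fits that each left out 1 mouse, highest over all alternatives 0.0824). Socs3, a brake on cytokine signalling, stood at 2.18 FPKM (1.72 to 3.42) in NC and 4.49 FPKM (2.65 to 6.6) in HFD mice (log2 fold change 0.87 ± 0.22, adjusted p = 0.0136). Igf1 was at 42.9 FPKM (40.7 to 53.5) in NC and 41.2 FPKM (34.8 to 51.6) in HFD mice (log2 fold change -0.08 ± 0.12, adjusted p = 0.652, not called). Among 24 secreted regulators and their receptors, 5 rose and 5 fell (median log2 fold change 0.05, between -0.07 and 0.24 over the alternatives, and 8 and 4 with a common FPKM sum). The leptin receptor Lepr stood at 7.34 FPKM (1.84 to 19.4) in NC and 0.763 FPKM (0.356 to 1.03) in HFD mice (log2 fold change -3.06 ± 0.48, adjusted p = 0.000855) without overlap. NC mice differed widely in it, from 1.84 FPKM in NC1 to 19.4 in NC5. Gdf15, a stress hormone that lowers appetite, stood at 3.33 FPKM (1.33 to 6.02) in NC and 14 FPKM (7.72 to 21.5) in HFD mice (log2 fold change 2.02 ± 0.32, adjusted p = 0.000971) without overlap, Serpina6, the corticosteroid carrier, at 27.6 FPKM (9.99 to 46.9) in NC and 95.8 FPKM (62.9 to 141) in HFD mice (log2 fold change 1.90 ± 0.35, adjusted p = 0.00246), and Fgf21, a fasting hormone, at 19.1 FPKM (8.05 to 34.2) in NC and 12 FPKM (4.21 to 28.8) in HFD mice (log2 fold change -0.69 ± 0.42, adjusted p = 0.264, not called). Lower calls in growth hormone and IGF axis numbered 1 without NC1, NC3, NC4, NC5, HFD1, HFD3, HFD4 or HFD6. Higher calls in hepatokines and circulating regulators numbered 3 without NC3, NC5, HFD1 or HFD5.

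**Figure D4:**
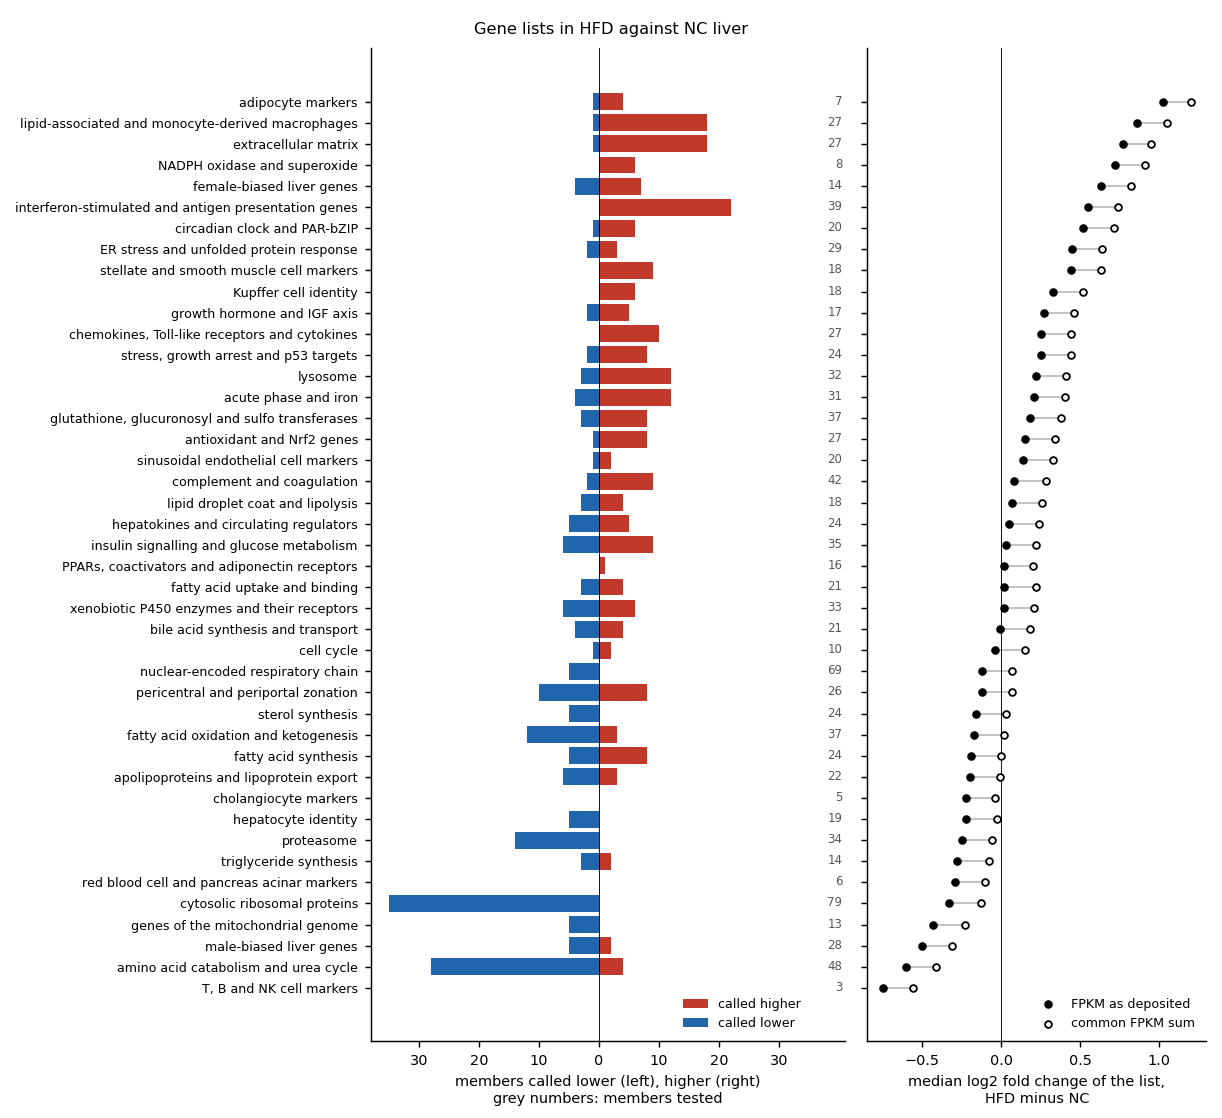
Left, the number of members of each gene list called lower (blue, to the left) and higher (red, to the right) in HFD liver, with the number tested in grey. Right, the median log2 fold change of each list with FPKM as deposited (filled) and with a common FPKM sum (open); the amino acid list lies at -0.60 and the extracellular matrix list at 0.77 with FPKM as deposited.

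Amino acid catabolism and the urea cycle had, with FPKM as deposited, the most lower calls after the ribosome: of 48 genes, 4 rose and 28 fell (median log2 fold change -0.60, and 9 and 22 with a common FPKM sum), and 21 did not overlap between groups. With a common FPKM sum the median was -0.41. The list level ranged from -0.22 to 0.29 in NC mice and from -0.70 to -0.48 in HFD mice, so that every HFD mouse lay below every NC mouse. The urea cycle genes follow in the order of the pathway. Cps1, which starts the cycle in mitochondria, stood at 1210 FPKM (855 to 1520) in NC and 425 FPKM (358 to 558) in HFD mice (log2 fold change -1.40 ± 0.16, adjusted p = 0.000152). Ass1, which joins citrulline to aspartate, stood at 1200 FPKM (929 to 1640) in NC and 581 FPKM (472 to 676) in HFD mice (log2 fold change -1.08 ± 0.14, adjusted p = 0.000282). Asl, which splits off arginine, stood at 296 FPKM (195 to 622) in NC and 75.3 FPKM (65.8 to 91.7) in HFD mice (log2 fold change -1.999 ± 0.23, adjusted p = 0.000152). None of them overlapped between groups. Arg1, which releases urea, stood at 876 FPKM (609 to 1760) in NC and 420 FPKM (398 to 448) in HFD mice (log2 fold change -1.14 ± 0.20, adjusted p = 0.00191). The remaining enzyme, Otc, was at 68.2 FPKM (51.2 to 84.6) in NC and 83.7 FPKM (73.1 to 109) in HFD mice (log2 fold change 0.36 ± 0.13, adjusted p = 0.0638, not called), and it was called higher with a common FPKM sum. Otc was also called higher without NC6 (adjusted p = 0.0305). The mitochondrial ornithine carrier Slc25a15 fell by 1.16 on the log2 scale.

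Further genes of this and related lists follow. Got1, the cytosolic aspartate transaminase, stood at 257 FPKM (158 to 531) in NC and 48.5 FPKM (42.1 to 77.9) in HFD mice (log2 fold change -2.27 ± 0.26, adjusted p = 0.000157). Tat, which opens tyrosine breakdown, stood at 884 FPKM (601 to 1560) in NC and 330 FPKM (208 to 624) in HFD mice (log2 fold change -1.47 ± 0.28, adjusted p = 0.00297). In Got1 the groups did not overlap, and in Tat NC6 lay below HFD4. Etnppl, of the zonation list, which degrades phosphoethanolamine, stood at 31.2 FPKM (19.4 to 49.4) in NC and 6.91 FPKM (4.29 to 8.87) in HFD mice (log2 fold change -2.28 ± 0.22, adjusted p = 4e-05). Asns, of the stress list, which makes asparagine, stood at 4.48 FPKM (2.41 to 5.46) in NC and 0.307 FPKM (0.0592 to 0.637) in HFD mice (log2 fold change -3.52 ± 0.35, adjusted p = 4.35e-05) without overlap.

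The 4 genes that rose were Haao, Prodh, Agxt2 and Glul, of which the call of Haao was lost without NC1, NC2, NC3, NC4, HFD1, HFD2, HFD3, HFD4 or HFD5 (adjusted p of 0.0231 to 0.0978 over the 12 fits that each left out 1 mouse, highest over all alternatives 0.0986). Glul, which fixes ammonia as glutamine around the central vein, stood at 310 FPKM (251 to 336) in NC and 456 FPKM (401 to 516) in HFD mice (log2 fold change 0.62 ± 0.09, adjusted p = 0.000762). Of 26 genes that mark the zones of the lobule, 8 rose and 10 fell (median log2 fold change -0.12, between -0.26 and 0.07 over the alternatives, and 11 and 7 with a common FPKM sum), and those that fell included Cps1, Ass1, Arg1, Hal, Sds and Gls2 of the periportal zone. Rhbg, an ammonia channel of the pericentral zone, rose, at 0.857 FPKM (0.41 to 1.3) in NC and 1.91 FPKM (1.59 to 2.65) in HFD mice (log2 fold change 1.25 ± 0.25, adjusted p = 0.00401). Of the 26 log2 fold changes of the zonation list, 13 were positive and 13 negative. Calls were not counted by zone, and a shift between zones was not tested. Among 19 genes of hepatocyte identity, 0 rose and 5 fell (median log2 fold change -0.22, and 2 and 4 with a common FPKM sum): Tat, Cps1, Apoa1, Tdo2 and Serpina1a fell with FPKM as deposited. In bulk tissue, fewer cells of a type and less RNA per cell cannot be told apart. Higher calls in hepatocyte identity numbered 1 without NC1.

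Of 33 xenobiotic P450 genes and their receptors, 6 rose and 6 fell (median log2 fold change 0.02, between -0.09 and 0.21 over the alternatives, and 9 and 5 with a common FPKM sum). The 4 with the largest changes in either direction were Cyp2b9, Cyp2b13, Cyp2a22 and Cyp2c40. Cyp2b13 was listed at 0 in 5 NC mice and at 0.0565 FPKM in NC6, and ranged from 0.279 to 16.3 FPKM in HFD mice; its fitted fold change rests on the pseudocount. Cyp2a22 stood at 0.812 FPKM (0.287 to 1.23) in NC and 7.86 FPKM (2.62 to 12.4) in HFD mice (log2 fold change 2.90 ± 0.42, adjusted p = 0.00059). Cyp3a11, the main drug-metabolizing Cyp3a enzyme, stood at 572 FPKM (478 to 723) in NC and 164 FPKM (105 to 286) in HFD mice (log2 fold change -1.74 ± 0.22, adjusted p = 0.000242).

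Male and female mouse livers differ in many P450 and secreted proteins under the control of pulsatile growth hormone. Of 32 female-biased genes, 14 passed the filter, and of these, 7 rose and 4 fell (median log2 fold change 0.63, and 8 and 3 with a common FPKM sum). Cyp2b9, Cyp2b13 and Cyp2a22 rose, and since they lay near 0 or below 2 FPKM in NC, the filter itself favoured such genes. Cyp2c40, Cyp17a1, Cyp4a14 and Cyp4a10 were those that fell, and the call of Cyp17a1 was lost without NC1, NC2, NC4, HFD2, HFD3, HFD4, HFD5 or HFD6 (adjusted p of 0.0274 to 0.0906 over the 12 fits that each left out 1 mouse, highest over all alternatives 0.104). Of 28 male-biased genes, 2 rose and 5 fell (median log2 fold change -0.50, and 2 and 5 with a common FPKM sum). Serpina1e stood at 2270 FPKM (1690 to 2520) in NC and 409 FPKM (145 to 1670) in HFD mice (log2 fold change -2.41 ± 0.45, adjusted p = 0.00246), and Cyp4a12b at 31.1 FPKM (25.8 to 45.7) in NC and 11.8 FPKM (3.42 to 13.9) in HFD mice (log2 fold change -1.83 ± 0.31, adjusted p = 0.00137). Neither overlapped, though HFD3 had 1670 FPKM of Serpina1e against 145 to 543 in the other HFD mice. Lower calls in male-biased liver genes numbered 13 without HFD3 and 8 without NC5.

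The level of the male-biased list differed more among HFD mice than between the groups. It ranged from -0.56 to 0.37 in NC mice and from -1.56 to 0.46 in HFD mice, with HFD1 at -1.45, HFD4 at -1.56 and HFD3 at 0.46. Mup7, a major urinary protein, was at 4050 FPKM (2640 to 5990) in NC and 1420 FPKM (195 to 6050) in HFD mice (log2 fold change -1.93 ± 0.71, adjusted p = 0.0707, not called); HFD1 and HFD4 had 195 and 237 FPKM and HFD3 had 6050. It was called without HFD3 (adjusted p = 0.0166). In the level of the female-biased list the order was the reverse at its upper end, with HFD4 highest at 1.58, while HFD6 and HFD3 were lowest at 0.46 and 0.59. Growth hormone itself was not measured here. Among 37 transferases of foreign compounds, 8 rose and 3 fell (median log2 fold change 0.18, and 14 and 2 with a common FPKM sum). Gstm3 stood at 3.4 FPKM (1.92 to 4.61) in NC and 9.09 FPKM (5.35 to 14) in HFD mice (log2 fold change 1.46 ± 0.27, adjusted p = 0.00243) and Gstp1, a male-biased transferase, at 898 FPKM (552 to 1370) in NC and 489 FPKM (313 to 764) in HFD mice (log2 fold change -0.92 ± 0.25, adjusted p = 0.0182).

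**Figure D5:**
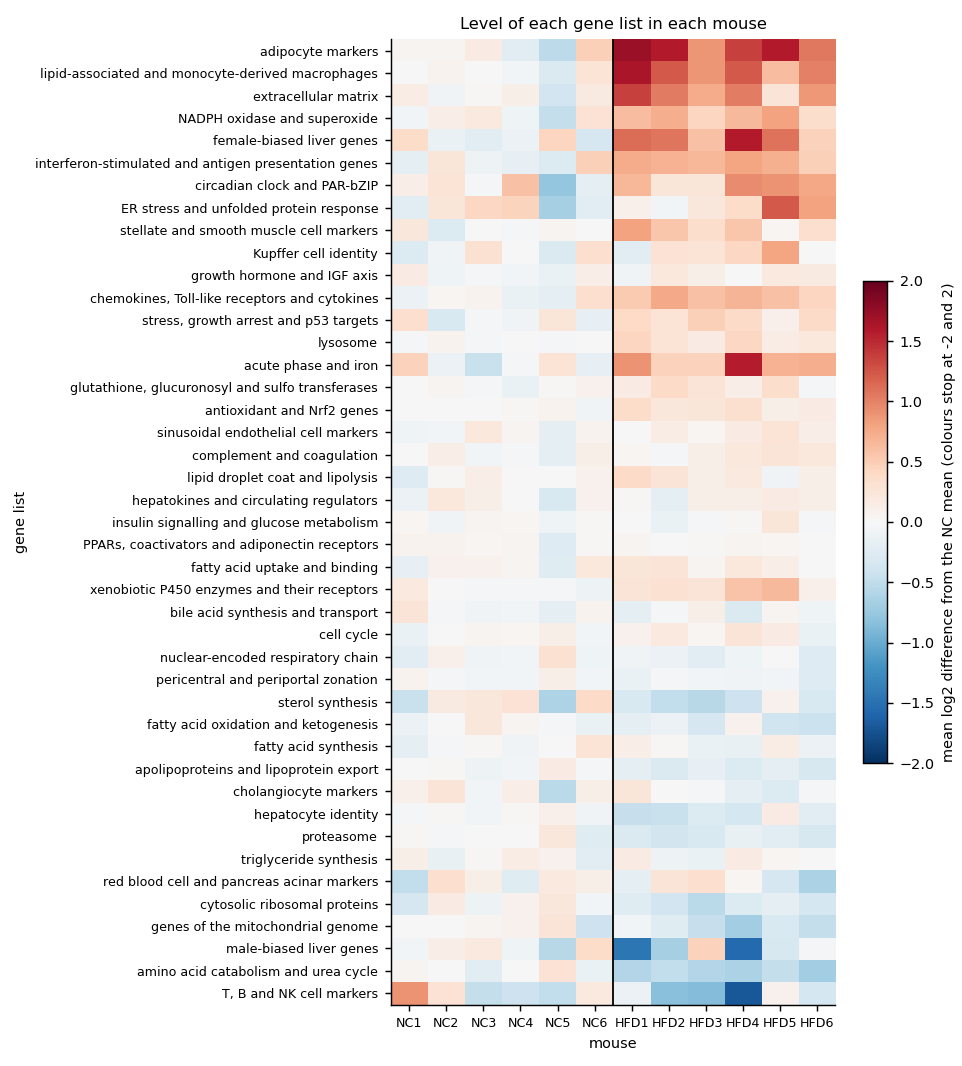
Level of each gene list (rows) in each mouse (columns): the mean over tested members of log2(FPKM + 0.1) minus the gene's NC mean, from blue (lower) to red (higher), with the colours stopped at -2 and 2. The black line divides NC from HFD mice; the male-biased list is blue in HFD1 and HFD4 and red in HFD3, and the acute phase list is darkest in HFD4.

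Of 27 markers of lipid-associated and monocyte-derived macrophages, 18 rose and 1 fell (median log2 fold change 0.86, and 20 and 1 with a common FPKM sum). The list also held S100a8 and S100a9, which neutrophils make, so its counts and levels are not of macrophage genes alone. Lgals1, a galectin, stood at 9.89 FPKM (3.01 to 15.8) in NC and 63.8 FPKM (52 to 85.8) in HFD mice (log2 fold change 2.95 ± 0.34, adjusted p = 0.000151). Lgals3, another galectin, stood at 2.91 FPKM (2.36 to 4.05) in NC and 10.1 FPKM (6.28 to 17.8) in HFD mice (log2 fold change 1.77 ± 0.22, adjusted p = 0.00021). Cd68, a lysosomal protein of macrophages, stood at 6.19 FPKM (2.8 to 7.17) in NC and 14 FPKM (12.1 to 17) in HFD mice (log2 fold change 1.35 ± 0.19, adjusted p = 0.00048). None of the 3 overlapped between groups. Mmp12, macrophage elastase, stood at 0.128 FPKM (0.0341 to 0.191) in NC and 2.46 FPKM (0.515 to 4.37) in HFD mice (log2 fold change 3.38 ± 0.42, adjusted p = 0.000218) without overlap, and it was lowest in HFD5. Trem2 and Gpnmb, which define lipid-associated macrophages, were below the mean of 1 FPKM and not tested. Gpnmb stood at 0.113 FPKM (0.0501 to 0.28) in NC and 2.06 FPKM (0.332 to 5.08) in HFD mice, without overlap. Trem2 stood at 0.125 FPKM (0.055 to 0.24) in NC and 1.14 FPKM (0.295 to 2.16) in HFD mice, also without overlap. The summed level of the tested markers was 630.78 to 722.05 in NC mice and 815.88 to 1175.8 in HFD mice, and the list level ranged from -0.29 to 0.27 in NC mice and from 0.61 to 1.64 in HFD mice.

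Resident Kupffer cells have markers of their own. Of 18 tested, 6 rose and 0 fell (median log2 fold change 0.33, and 7 and 0 with a common FPKM sum). Clec4f, found on Kupffer cells alone, was at 42.9 FPKM (30.6 to 53.4) in NC and 58.4 FPKM (27.2 to 72.3) in HFD mice (log2 fold change 0.30 ± 0.23, adjusted p = 0.38, not called), and Timd4, of long-lived Kupffer cells, at 2.65 FPKM (1.62 to 4.19) in NC and 2.8 FPKM (1.15 to 6.26) in HFD mice (log2 fold change 0.01 ± 0.37, adjusted p = 0.991, not called). C1qb, a complement subunit that macrophages make, stood at 43.8 FPKM (37.1 to 53.4) in NC and 74.2 FPKM (56.9 to 88.7) in HFD mice (log2 fold change 0.72 ± 0.13, adjusted p = 0.00194) without overlap. Adgre1, which encodes the F4/80 antigen, stood at 5.98 FPKM (2.61 to 9.4) in NC and 10.5 FPKM (7.7 to 13.3) in HFD mice (log2 fold change 0.88 ± 0.27, adjusted p = 0.0339), a call lost without NC1, NC2, NC4, HFD1, HFD2, HFD3, HFD4 or HFD5 (adjusted p of 0.018 to 0.0691 over the 12 fits that each left out 1 mouse, highest over all alternatives 0.0777). The summed level of the list was 345.12 to 513.17 in NC mice and 424.61 to 700.25 in HFD mice. Higher calls in Kupffer cell identity numbered 1 without NC1, NC4, HFD2, HFD4 or HFD5 and 3 without NC2, NC5 or HFD3. Lower calls in Kupffer cell identity numbered 1 without HFD3 or HFD6.

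Of 27 chemokines, Toll-like receptors and cytokines, 10 rose and 0 fell (median log2 fold change 0.25, and 11 and 0 with a common FPKM sum). Ccl2, which draws monocytes from blood, stood at 0.233 FPKM (0 to 0.512) in NC and 2.59 FPKM (0.876 to 4.02) in HFD mice (log2 fold change 3.05 ± 0.45, adjusted p = 0.000639) without overlap. Cxcl1, which draws neutrophils, stood at 0.599 FPKM (0.263 to 0.974) in NC and 4.48 FPKM (2.22 to 5.55) in HFD mice (log2 fold change 2.60 ± 0.31, adjusted p = 0.000174) without overlap. Tlr2, a receptor for bacterial lipoproteins, stood at 0.781 FPKM (0.475 to 1.27) in NC and 2.25 FPKM (1.7 to 2.72) in HFD mice (log2 fold change 1.35 ± 0.20, adjusted p = 0.000654). The neutrophil proteins S100a8 and S100a9, counted in the macrophage list, rose as well, S100a8 at 0.714 FPKM (0.248 to 1.47) in NC and 4.42 FPKM (1.94 to 5.95) in HFD mice (log2 fold change 2.25 ± 0.38, adjusted p = 0.0013). Tnf was below the filter, at 0.0326 FPKM (0 to 0.097) in NC and 0.231 FPKM (0.0614 to 0.404) in HFD mice. Lower calls in chemokines, Toll-like receptors and cytokines numbered 1 without HFD5.

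Interferon-stimulated and antigen presentation genes made the list with the most higher calls: of 39, 22 rose and 0 fell (median log2 fold change 0.55, and 28 and 0 with a common FPKM sum), and 38 had a positive log2 fold change, against 4604 of all 10216 genes. Ifi27l2b stood at 3.72 FPKM (2.29 to 5.15) in NC and 19.6 FPKM (14 to 29.6) in HFD mice (log2 fold change 2.40 ± 0.22, adjusted p = 2.78e-05) without overlap. Isg15, the ubiquitin-like protein, stood at 7.81 FPKM (5.26 to 8.8) in NC and 17 FPKM (13.3 to 23.9) in HFD mice (log2 fold change 1.22 ± 0.17, adjusted p = 0.000448) without overlap. Ifit1, which binds foreign RNA, stood at 3.17 FPKM (1.07 to 4.67) in NC and 7.71 FPKM (4.69 to 10.5) in HFD mice (log2 fold change 1.29 ± 0.32, adjusted p = 0.0116) without overlap. NC6 had the highest list level of the NC mice, 0.47, equal to the lowest HFD mouse at this precision, and without NC6 26 of the genes rose.

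Of 8 genes of NADPH oxidase and superoxide production, 6 rose and 0 fell (median log2 fold change 0.72, and 6 and 0 with a common FPKM sum). Cybb, the catalytic subunit in phagocytes, stood at 2.97 FPKM (1.23 to 3.86) in NC and 5.35 FPKM (3.88 to 6.5) in HFD mice (log2 fold change 0.88 ± 0.23, adjusted p = 0.0158) without overlap, and its partner Cyba at 8.34 FPKM (7.51 to 10.8) in NC and 15.6 FPKM (10.8 to 18.1) in HFD mice (log2 fold change 0.72 ± 0.15, adjusted p = 0.00498). Of 32 lysosomal genes, 12 rose and 3 fell (median log2 fold change 0.22, and 20 and 2 with a common FPKM sum), and among 27 antioxidant genes 8 rose and 1 fell (median log2 fold change 0.15, and 14 and 0 with a common FPKM sum). Hmox1, which degrades haem, stood at 12.6 FPKM (9.87 to 13.1) in NC and 24.5 FPKM (19.6 to 29.4) in HFD mice (log2 fold change 1.03 ± 0.11, adjusted p = 8e-05) without overlap. Sod3, the extracellular superoxide dismutase, stood at 7.15 FPKM (6.04 to 8.82) in NC and 12.1 FPKM (9.71 to 16.4) in HFD mice (log2 fold change 0.75 ± 0.15, adjusted p = 0.00313) without overlap.

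Of 27 genes of the extracellular matrix, 18 rose and 1 fell (median log2 fold change 0.77, and 19 and 0 with a common FPKM sum), and 12 did not overlap between groups. Col1a1 and Col1a2 encode the chains of collagen I and Col3a1 collagen III, the fibrillar collagens of scar tissue. Col1a1 stood at 0.702 FPKM (0.433 to 1.23) in NC and 5.42 FPKM (1.46 to 9.99) in HFD mice (log2 fold change 2.53 ± 0.37, adjusted p = 0.000665), without overlap. Col3a1 stood at 1.36 FPKM (0.371 to 1.89) in NC and 9.2 FPKM (3.03 to 13.8) in HFD mice (log2 fold change 2.69 ± 0.38, adjusted p = 0.000487), without overlap. Mmp2, a gelatinase of stellate cells, stood at 0.653 FPKM (0.605 to 1.1) in NC and 1.98 FPKM (0.881 to 2.99) in HFD mice (log2 fold change 1.33 ± 0.25, adjusted p = 0.00235). In Mmp2, HFD5 at 0.881 lay below NC1 at 1.10. Mmp14 was the gene that fell. Col6a3 and Timp1 were below the filter; Timp1, an inhibitor of matrix proteases, was at 0.032 FPKM (0 to 0.334) in NC and 1.27 FPKM (0.426 to 2.29) in HFD mice, without overlap, and Col6a3 at 0.458 FPKM (0.33 to 0.722) in NC and 1.53 FPKM (0.681 to 2.52) in HFD mice. Lower calls in extracellular matrix numbered 0 without NC1, NC2, NC3, NC5, NC6, HFD2, HFD3, HFD5 or HFD6.

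Of 18 markers of stellate and smooth muscle cells, 9 rose and 0 fell (median log2 fold change 0.44, and 10 and 0 with a common FPKM sum). Pdgfrb, the growth factor receptor of stellate cells, stood at 1.23 FPKM (1.13 to 1.51) in NC and 2.41 FPKM (1.35 to 4.25) in HFD mice (log2 fold change 0.88 ± 0.20, adjusted p = 0.00877). Tpm2, a tropomyosin, stood at 2.3 FPKM (1.48 to 3.06) in NC and 8.26 FPKM (4.26 to 9.87) in HFD mice (log2 fold change 1.68 ± 0.20, adjusted p = 0.000186) without overlap. Acta2, the actin of activated stellate and smooth muscle cells, was at 2 FPKM (0.565 to 6.03) in NC and 1.68 FPKM (1.04 to 2.34) in HFD mice (log2 fold change -0.27 ± 0.46, adjusted p = 0.721, not called). The summed level was 102.48 to 133.59 in NC mice and 135.43 to 192.32 in HFD mice. Of 20 sinusoidal endothelial markers, 2 rose and 1 fell (median log2 fold change 0.14, and 4 and 0 with a common FPKM sum). Higher calls in sinusoidal endothelial cell markers numbered 1 without NC1, NC2, NC5, NC6, HFD1, HFD2, HFD4 or HFD6.

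HFD mice were not alike in these genes. The level of the matrix list was 1.37 in HFD1 and 0.25 in HFD5, against -0.39 to 0.18 in NC mice, and the macrophage list gave 1.64 and 0.61 for the same mice. HFD1 was the highest and HFD5 the lowest HFD mouse for Mmp12, Col1a1, Col3a1, Gpnmb, Trem2, Lgals3 and Timp1. HFD5 was the highest HFD mouse in the Kupffer list at 0.79 and the endoplasmic reticulum list at 1.23, and had the most Thrsp.

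Of 31 acute phase and iron genes, 12 rose and 4 fell (median log2 fold change 0.21, and 16 and 3 with a common FPKM sum), and 14 did not overlap. Lcn2, which binds bacterial iron carriers, stood at 1.7 FPKM (0.685 to 5.92) in NC and 31.2 FPKM (15.6 to 168) in HFD mice (log2 fold change 4.34 ± 0.56, adjusted p = 0.000253). Saa1, a serum amyloid, stood at 9.7 FPKM (3.21 to 35.8) in NC and 87.6 FPKM (58.5 to 1050) in HFD mice (log2 fold change 3.64 ± 0.74, adjusted p = 0.00435). Orm2, an orosomucoid, stood at 5.33 FPKM (3.23 to 15.2) in NC and 48 FPKM (26.3 to 225) in HFD mice (log2 fold change 3.25 ± 0.48, adjusted p = 0.000616). All 3 were without overlap, and HFD4 was the highest mouse in each. Hamp, the hormone hepcidin that blocks iron export, stood at 2230 FPKM (1350 to 7250) in NC and 856 FPKM (615 to 1520) in HFD mice (log2 fold change -1.46 ± 0.35, adjusted p = 0.0112). Of 42 complement and coagulation genes, 9 rose and 2 fell (median log2 fold change 0.08, and 14 and 0 with a common FPKM sum). C4b stood at 171 FPKM (133 to 191) in NC and 305 FPKM (257 to 410) in HFD mice (log2 fold change 0.92 ± 0.13, adjusted p = 0.000489) without overlap. Higher calls in complement and coagulation numbered 5 without HFD4 or HFD6. Lower calls in complement and coagulation numbered 1 without NC2 or HFD2 and 4 without NC5.

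Of 29 genes of the unfolded protein response of the endoplasmic reticulum, 3 rose and 2 fell (median log2 fold change 0.45, and 6 and 1 with a common FPKM sum). Chac1, a glutathione-degrading enzyme, stood at 0.375 FPKM (0.175 to 0.573) in NC and 4.34 FPKM (2.46 to 6.27) in HFD mice (log2 fold change 3.26 ± 0.30, adjusted p = 2.78e-05) without overlap, opposite to Asns, though both are known targets of the transcription factor ATF4. Atf4 itself was at 30 FPKM (23.4 to 48.9) in NC and 29.8 FPKM (23.4 to 41.8) in HFD mice (log2 fold change -0.01 ± 0.17, adjusted p = 0.973, not called). Hspa5, the main chaperone of the compartment, was at 219 FPKM (84.3 to 304) in NC and 248 FPKM (152 to 797) in HFD mice (log2 fold change 0.57 ± 0.42, adjusted p = 0.365, not called). The median of the list was 0.45 with NC5 and 0.28 without it, and 0.11 at its lowest over the alternatives. Of the 29 log2 fold changes, 24 were positive. The list level ranged from -0.66 to 0.45 in NC mice and from -0.06 to 1.23 in HFD mice. Only HFD5 at 1.23 and HFD6 at 0.81 lay above the NC range. Lower calls in ER stress and unfolded protein response numbered 1 without NC2, NC3, NC4, NC5, NC6, HFD1, HFD2, HFD3 or HFD6.

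Of 24 stress, growth arrest and p53 genes, 8 rose and 2 fell (median log2 fold change 0.25, and 11 and 2 with a common FPKM sum). Atf3, an early stress factor, stood at 0.665 FPKM (0.278 to 1.13) in NC and 4.18 FPKM (1.95 to 5.01) in HFD mice (log2 fold change 2.40 ± 0.30, adjusted p = 0.000247) without overlap. Gadd45a stood at 0.672 FPKM (0.28 to 0.748) in NC and 2.24 FPKM (1.29 to 3.96) in HFD mice (log2 fold change 1.88 ± 0.29, adjusted p = 0.000762) without overlap, while its relatives Gadd45b and Gadd45g fell, the latter at 36.5 FPKM (14.1 to 92.5) in NC and 9.57 FPKM (5.01 to 33.1) in HFD mice (log2 fold change -1.68 ± 0.46, adjusted p = 0.0201). Of 10 cell cycle genes above the filter, 2 rose and 1 fell (median log2 fold change -0.04, between -0.07 and 0.31 over the alternatives, and 2 and 1 with a common FPKM sum). Ccnd1, cyclin D1, stood at 2.26 FPKM (1.75 to 2.69) in NC and 5.47 FPKM (4.04 to 8.48) in HFD mice (log2 fold change 1.29 ± 0.17, adjusted p = 0.000266) without overlap, and Ccnd3 at 5.99 FPKM (5.42 to 6.57) in NC and 4.14 FPKM (3.3 to 4.75) in HFD mice (log2 fold change -0.56 ± 0.09, adjusted p = 0.00123). Mki67, Top2a and 11 other genes of division were below the filter. Higher calls in cell cycle numbered 1 without NC1, NC2, NC3, NC4, HFD2, HFD3 or HFD4.

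The liver clock runs on activators that bind E-boxes and on output factors that bind D-boxes, and its genes swing widely over a day. Of 20 genes tested, 6 rose and 1 fell (median log2 fold change 0.52, and 9 and 0 with a common FPKM sum). Dbp, an output factor, stood at 6.39 FPKM (0.99 to 14) in NC and 25.1 FPKM (18 to 31.7) in HFD mice (log2 fold change 2.17 ± 0.52, adjusted p = 0.00991). Wee1, a cell cycle kinase under clock control, stood at 0.877 FPKM (0.604 to 2.12) in NC and 5.84 FPKM (3.1 to 7.78) in HFD mice (log2 fold change 2.32 ± 0.27, adjusted p = 0.000152). Per3, a clock repressor, stood at 0.348 FPKM (0.0771 to 0.981) in NC and 1.66 FPKM (0.971 to 2.13) in HFD mice (log2 fold change 1.95 ± 0.36, adjusted p = 0.00241). In Wee1 and Dbp the groups did not overlap, while in Per3 NC4 at 0.981 lay just above HFD3 at 0.971. Arntl, the activator, was below the filter, at 1.39 FPKM (0.663 to 2.79) in NC and 0.323 FPKM (0.187 to 1.05) in HFD mice. The time of killing in each group is not known here, so diet and time of day cannot be told apart in these genes. Lower calls in circadian clock and PAR-bZIP numbered 0 without NC3, NC4, NC6, HFD1, HFD2 or HFD4 and 2 without NC5.

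RefSeq promoters were found for 16 of the 20. An E-box (CACGTG, which reads the same on both strands) lay in the 250 bases before a start site of 4 of 16, Per1, Cry1, Tef and Ciart, against 10.4% of tested genes. The sterol synthesis genes with a window had an E-box at a similar share, in 4 of 17 (23.5%), so that share was not particular to the clock genes. A D-box (TTANGTAA, on either strand) lay in 1 of 16, Per3, against 1.84%. The windows of Per3, which rose, and of Ciart, the gene with most E-boxes, are printed with those motifs in capitals. Ciart, a repressor of the clock, was at 1.08 FPKM (0.0703 to 4.45) in NC and 4.12 FPKM (0.577 to 7.41) in HFD mice (log2 fold change 1.54 ± 0.78, adjusted p = 0.179, not called).
Per3, chr4:151044666-151044915, minus strand: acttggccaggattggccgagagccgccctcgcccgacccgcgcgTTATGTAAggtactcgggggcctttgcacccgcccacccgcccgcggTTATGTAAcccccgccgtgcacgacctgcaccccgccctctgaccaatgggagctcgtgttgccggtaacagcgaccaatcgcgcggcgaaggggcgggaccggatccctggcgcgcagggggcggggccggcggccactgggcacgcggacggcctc
Ciart, chr3:95882229-95882478, minus strand: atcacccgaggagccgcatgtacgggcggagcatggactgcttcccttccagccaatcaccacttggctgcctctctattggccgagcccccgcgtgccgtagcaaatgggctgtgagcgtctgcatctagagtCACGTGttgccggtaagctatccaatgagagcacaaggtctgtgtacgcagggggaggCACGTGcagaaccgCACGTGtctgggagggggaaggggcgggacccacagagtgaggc
Per3 held 2 D-boxes and Ciart 3 E-boxes. Dbp held neither motif in this window.

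None of 79 cytosolic ribosomal protein genes rose, and 35 fell with FPKM as deposited and 5 with a common FPKM sum. Lower calls in cytosolic ribosomal proteins numbered 23 without NC2 and 57 without NC1. The median log2 fold change was -0.33 and -0.13 under the 2 scalings, against -0.033 and 0.154 for all genes. Of 34 proteasome genes, 0 rose and 14 fell (median log2 fold change -0.25, and 0 and 3 with a common FPKM sum). Psmd9, an assembly chaperone of the proteasome, stood at 11 FPKM (7.76 to 18.6) in NC and 4.88 FPKM (4.52 to 5.28) in HFD mice (log2 fold change -1.23 ± 0.16, adjusted p = 0.000304) without overlap. Of 69 nuclear-encoded genes of the respiratory chain, 0 rose and 5 fell (median log2 fold change -0.12, between -0.16 and 0.07 over the alternatives, and 5 and 0 with a common FPKM sum). Of 13 genes of the mitochondrial genome, 0 rose and 5 fell (median log2 fold change -0.43, and 0 and 0 with a common FPKM sum). The genome's share of fragments was 3.909% to 4.865% in NC and 3.142% to 4.356% in HFD mice. Lower calls in nuclear-encoded respiratory chain numbered 2 without NC2, NC4, HFD1, HFD2, HFD3 or HFD6 and 3 without HFD4. Lower calls in genes of the mitochondrial genome numbered 3 without NC1, NC2, NC5, HFD2 or HFD4.

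One list held the genes assayed by RT-PCR in the same experiment. Of its 21 genes, 17 passed the filter on low values, 13 rose and none fell, and 14 rose with a common FPKM sum (median log2 fold change 1.33 as deposited). Lower calls in RT-PCR genes of the study numbered 1 without NC3. The list was chosen by the study on mice of the same experiment, so it is not independent evidence of a direction. Actb, the β-actin gene that served as the internal standard of the RT-PCR, was among those that rose. It stood at 125 FPKM (110 to 146) in NC and 179 FPKM (172 to 190) in HFD mice (log2 fold change 0.50 ± 0.08, adjusted p = 0.000972), so that its highest NC mouse lay below its lowest HFD mouse. Its log2 fold change ranged from 0.47 to 0.70 over 26 alternatives, in each of which it was called. Vim, of stellate cells and other mesenchymal cells, stood at 5.02 FPKM (4.45 to 6.5) in NC and 8.06 FPKM (5.22 to 12.3) in HFD mice (log2 fold change 0.64 ± 0.17, adjusted p = 0.0163).

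Of the 12 adipocyte markers, 7 were tested, of which 4 rose and 1 fell (median log2 fold change 1.02, and 4 and 1 with a common FPKM sum). Cfd, Thrsp, Car3 and Fabp4 rose and Pck1 fell. Cfd, adipsin, stood at 2.72 FPKM (0 to 7.47) in NC and 38.1 FPKM (19.4 to 135) in HFD mice (log2 fold change 4.68 ± 0.88, adjusted p = 0.00268) without overlap. Car3, a carbonic anhydrase that liver makes too, stood at 140 FPKM (26 to 403) in NC and 660 FPKM (516 to 1180) in HFD mice (log2 fold change 2.69 ± 0.58, adjusted p = 0.00578). The defining markers were near 0: Adipoq was at 0.0415 FPKM (0 to 0.618) in NC and 0.0344 FPKM (0 to 0.401) in HFD mice, Plin1 at 0.0291 FPKM (0 to 0.294) in NC and 0 FPKM (0 to 0.0757) in HFD mice, and Lep was listed at 0 in 11 mice and at 0.225 FPKM in HFD4. The summed level of the list, most of it Pck1 and Car3, was 1192.3 to 1704.3 in NC mice and 1060 to 1888.4 in HFD mice. None of the 3 T, B and NK cell genes tested was called by limma, and 21 further markers of these cells were below the filter. None of the 5 cholangiocyte and none of the 6 red blood cell and pancreas genes tested was called with FPKM as deposited (the unadjusted p was under 0.05 for 5 of these 14), whereas 2 of the 6, Alas2 and Cela1, were called higher with a common FPKM sum and voom on plain totals called 1 cholangiocyte gene higher. The medians of these 3 lists were -0.75, -0.22 and -0.29 on the log2 scale. Lower calls in T, B and NK cell markers numbered 1 without HFD5. Higher calls in cholangiocyte markers numbered 1 without NC2. Lower calls in cholangiocyte markers numbered 1 without NC5 or HFD6. Higher calls in red blood cell and pancreas acinar markers numbered 1 without NC6 or HFD1.

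Across levels of expression, calls with FPKM as deposited were spread unevenly. Of the 2554 genes with the highest mean, 428 fell (16.8%) and 281 rose. Of the 2554 with the lowest mean, 127 fell (4.97%) and 283 rose. With a common FPKM sum 334 genes fell at all levels together, so these shares depend on the scaling. The median standard deviation between mice on the log2 scale was 0.225 in NC (0.166 without NC5) and 0.187 in HFD mice.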

How the data were processed

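Poly-A RNA from liver was sequenced as 150 bp read pairs. Per the submitters' processing notes, the authors aligned reads to mm10 with HISAT2 2.0.5 and counted fragments per gene with featureCounts 1.5.0-p3, and they deposited FPKM per gene and mouse. Their differential expression by DESeq2 was not repeated. Multiplying FPKM by gene length gave whole fragments for 100% of values (tolerance 0.05), which gave the depth per mouse (17163191 to 20493907 fragments) and 2 added alternatives run with voom. No pair of libraries of a group agreed within sampling noise.

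The 10216 genes with a mean of at least 1 FPKM over 18 mice were fitted with limma 3.58.1 in R 4.3.3 (lmFit and eBayes with trend) on log2(FPKM + 0.1), 6 HFD against 6 NC mice. Calls needed a fold over 1.2 and p under 0.05 after Benjamini-Hochberg adjustment. The fit was tested on simulated data first. List levels were the mean over members of the log2 value minus the gene's NC mean.

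The comparison and the 44 gene lists were chosen with earlier results of these data known. Genes were named by rule: the 10 with the smallest adjusted p and the 10 with the largest fold in each direction, up to 4 called members per list with the largest change (2 with the smallest p where none was called), and the genes measured by RT-PCR. Further names, among them Alb, Mup7, Fasn, Acly, Scd1, Cpt1a, Otc, Arg1, Trem2, Gpnmb, Clec4f, Acta2, Hspa5 and Arntl, were chosen after their values were seen. A few rule-named genes are not reported here. Alternatives were other pseudocounts, filters, scalings, variance models, a replicate block and each mouse left out. Promoter sequences came from RefSeq (GRCm38.p6).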

Additional observations from a re-analysis of the deposited data

Results flagged for a closer look

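Of 254 groups of 6 mice checked, 2 for each of 127 genes, 33 held a mouse farther from the rest than Dixon's 95% limit allows. The 127 did not include every gene described above: Mt1, Cyp2b13 and Lep were not among them. For normally distributed values that limit flags about 1 in 20 groups by chance. FPKM were checked without logs, and some genes were named after their values were seen, so that rate is no baseline here. NC5 accounted for 13 of the 33. It was high for Pnpla2 at 108 FPKM, Dgat1 at 15.1, Thrsp at 7.31, Apoa1 at 13400, Asl at 622, Cyp17a1 at 104, Hamp at 7250 and Atf4 at 48.9 FPKM. The same mouse was low for Elovl2 at 182 FPKM, Cd68 at 2.80, Cybb at 1.23, Ppara at 13.1 and Cpt1a at 182 FPKM.

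NC1 was flagged 7 times, always as the highest NC mouse: Cyp2b9 at 0.879 FPKM, Ildr2 at 4.89, Lcn2 at 5.92, Orm2 at 15.2, Vim at 6.5, Mmp2 at 1.10 and Plin1 at 0.294 FPKM. NC4 was highest for Socs3 at 3.42 and Wee1 at 2.12 FPKM.

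Among HFD mice, HFD4 was flagged 5 times, for Lcn2 at 168 FPKM, Saa1 at 1050, Orm2 at 225, Adipoq at 0.401 and Plin1 at 0.0757 FPKM. HFD5 was highest for Thrsp at 111 and Acly at 22.9 FPKM and lowest for Atf3 at 1.95 FPKM. HFD2 was highest for Cfd at 135 FPKM, HFD3 highest for Serpina1e at 1670 FPKM, and HFD6 lowest for Tpm2 at 4.26 FPKM.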

How the results depend on the processing

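Of 2062 called genes, 1092 were higher and 970 lower. Scaling moved that split most: 2100 and 334 with a common FPKM sum, 2159 and 345 with a common protein-coding sum, and 2010 and 409 with voom on plain library totals, the last 2 settings chosen after the data had been seen. A minimum mean of 5 FPKM, which tested fewer genes, called 1271, of them 571 higher. A fold over 2 left 371 calls, 240 higher and 131 lower. Each mouse left out in turn gave 1646 to 2145 calls, 874 to 1089 of them higher and 753 to 1056 lower. Without NC6, whose diet label reads high-fat, 2025 genes were called, 1061 higher and 964 lower. A replicate block gave 1647 calls (862 higher and 785 lower); same-numbered mice correlated at -0.117 to 0.098, so the numbers were not taken to pair mice. Of 217 named genes tested, 147 of the 187 called were called under every alternative, and no called gene changed direction under any of them. Genes near 1 FPKM rest on few fragments.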
